A study of Rattus norvegicus with 2 samples.

Results

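The ubiquitin ligase families described here are 80 genes of the 4212 gene names in a table of N6-methyladenosine (m6A) peaks, with 120 of its 8512 peaks. Members were chosen by name: every gene called Trim, Rnf, Fbxo, Fbxw, Fbxl, Ubr, Herc, Cul, Hectd or March followed by a number, and Huwe1, Nedd4, Nedd4l, Itch and Ube3a, as far as the table lists them. They were sorted into 49 genes of the RING group (Trim, Rnf, March and most Ubr genes), 8 of the HECT group and 23 F-box or cullin genes.

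The RNA came from hippocampal neurons dissociated from newborn (P0) Sprague-Dawley rats and cultured in bulk, given AraC on day 7 in vitro and treated with lead acetate (PbAc) from day 12 for 48 h. The sample labels give the dose as 5 mM and the design text as 5 µM, and the exposure is said to end on day 13 in one label and on day 14 in another. The 2 libraries were 1 immunoprecipitate (IP), the RNA fragments that an m6A antibody recovers, and 1 input, the RNA before that step. Whether animals were pooled is not stated in the labels. Both libraries carry the lead exposure, neurons without it are not analysed here, and the values below are therefore no measure of what lead did. With 1 library on each side, no value has a replicate and none could be tested, and since the table holds peaks and no read counts, library depth and the level of each RNA in the input are unknown.

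Ubiquitin ligases choose the proteins that receive ubiquitin, most often as a mark for the proteasome. RING proteins, which hold zinc, bring a loaded ubiquitin-conjugating enzyme to the target, whereas HECT ligases take the ubiquitin onto a cysteine of their own before passing it on. Cullins are scaffolds that join a RING subunit to an adaptor that binds the target, and F-box proteins are the adaptors of the complex built on Cul1. In neurons, ligases of all 3 kinds are known to act in axon growth, synapse turnover and the removal of misfolded proteins.

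Each peak has a fold enrichment, the linear ratio of the IP over the local background, and a score, 10 times the −log10 of the peak's p, so that a score of 100 is a p of 1e-10. Peaks that score 100 or more are called high-score peaks below. Both are the authors' values, from their peak caller. Coordinates are those of the table, turned to counting from 1. The labels and the header do not name its build, so the bases under a peak were not read and no peak was placed within its transcript.

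The 3 highest peaks lay in the RING group. Trim44 reached a fold enrichment of 28.81, March6 26.74 and Rnf20 26.73, and the first F-box gene, Fbxw11, followed at 22.66. Among all 4212 genes ranked by their highest peak these were numbers 94, 114, 115 and 179. Of the 80 members, 4 stood among the top 200 and 10 among the top 500, near an even spread over the ranking. In all, 21 of the 80 members (26.2%) reached 10-fold, against 24.2% of all listed genes, a share near the background. These 21 were 11 of 49 RING genes, 2 of 8 HECT genes and 8 of 23 F-box or cullin genes. All 21 also had a high-score peak, as did 98.4% of the 1018 genes that reached 10-fold in the whole table.

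The median member was lower in fold than the median listed gene, but its interval includes the latter. The median of each gene's highest fold was 5.75 over the 80 members (order-statistic 95% interval 5.16 to 7.56) and 6.62 over all listed genes. It was 5.58 in the RING group (interval 5.06 to 7.27) and 5.77 among F-box and cullin genes (5.04 to 10.2). In the HECT group it was 8.8, with an interval (3.4 to 11.1) that is the full range of its 8 genes. The 3 intervals overlap. A high-score peak was present in 26 members (32.5%), against 40.6% of all listed genes, and a peak scoring 50 or more (p of 1e-5) in 39 (48.8%), against 52.6%. In 23 members (28.7%) not even the best peak had a p of 0.05 or less, against 22.8% of all listed genes. The median rank of a member was 2555 of 4212. Members also had fewer peaks per gene, 1.5 against 2.02 over all listed genes. With 1 peak the median highest fold was 5.17 in 50 members and 5.45 in all listed genes. With 2 peaks it was 9.12 in 21 members and 7.18 in all, and with 3 or more it was 7.27 in 9 members and 10 in all. The part of peak number in the medians was not tested. Members close to the 10-fold limit matter for the count above, since 5 genes lay between 10 and 10.5-fold, and 16 members reached 11-fold against 20% of all listed genes.

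**Figure D1:**
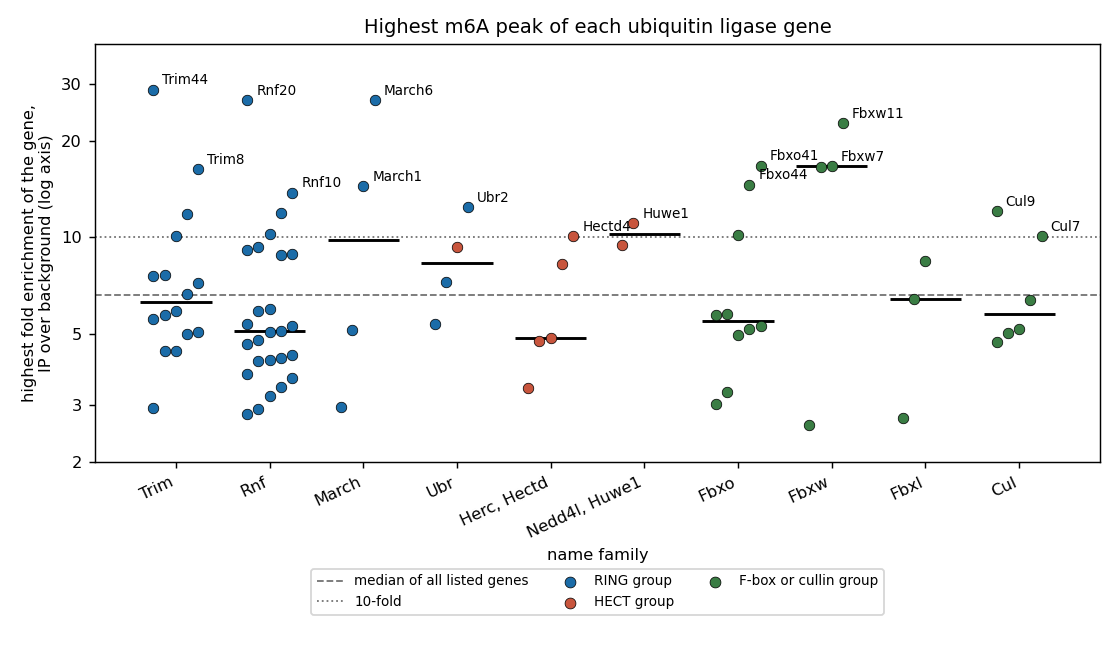
Highest fold enrichment of each of the 80 ubiquitin ligase genes (points, log axis) by name family, coloured by group. Short black lines are family medians, the dashed line is the median of all listed genes (6.62) and the dotted line is 10-fold. Trim44, March6 and Rnf20 are highest, and 3 of 4 Fbxw genes lie above 10-fold, which 24.2% of all listed genes reached.

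Of the genes these families hold in a RefSeq gene table (assembly GRCr8), 77 of 250 had a peak (30.8%, exact 95% interval 25.1 to 36.9%), against 17.3% of 23154 coding genes. That reference includes genes that neurons do not express, so the share mixes expression with recovery by the antibody. Counting peaks that score 50 or more, it was 15.2% (interval 11 to 20.3%), against 9.08% of coding genes. For high-score peaks it was 10.4% (interval 6.91 to 14.9%), against 7.01%. The 3 remaining members now carry other symbols, such as Obi1 for Rnf219 and Fbh1 for Fbxo18, and are not counted in the 250.

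By group, 8 of 15 HECT genes had a peak (53.3%, interval 26.6 to 78.7%), 47 of 161 RING genes (29.2%, interval 22.3 to 36.9%) and 22 of 74 F-box or cullin genes (29.7%, interval 19.7 to 41.5%). The HECT share was the highest of the 3 and its interval is wide. HECT genes listed here were also long, with a median span from start to end in the gene table of 120 kb, against 32.4 kb in the RING group, 38.1 kb among F-box and cullin genes and 39.4 kb over all listed genes that matched the table. The part of gene length in these shares was not tested. Within the groups the share was 6 of 8 for cullins and 4 of 6 for Ubr genes. For Fbxl genes, the leucine-rich F-box proteins, it was 3 of 20 (15%), near the 17.3% of coding genes.

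**Figure D2:**
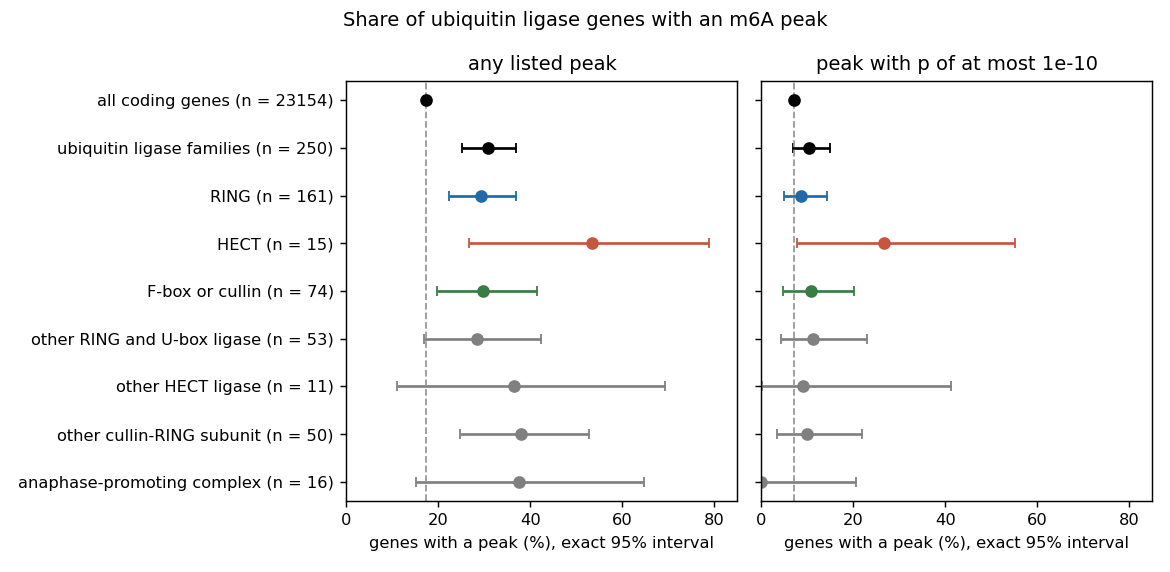
Share of genes with a peak, in percent, with exact 95% intervals (bars), for any listed peak (left) and for a high-score peak (right, p of 1e-10 or less). The dashed line is the share of all coding genes, 17.3% on the left and 7.01% on the right; n is the number of genes of each set in the gene table.

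Trim genes carry a RING, B-boxes and a coiled coil, with exceptions, and the strongest was one of these. Trim44, whose protein lacks the RING domain of its family, had a single peak of 669 bases at bases 98893812 to 98894480 of chromosome 3, with a fold enrichment of 28.81 and a score of 3100, at which 168 peaks of the table stand. Trim8, a regulator of cytokine signalling, had 2 peaks of 16.28-fold and 7.16-fold on chromosome 1, and the stronger was 1585 bases long, the longest peak of any member. The lower of these 2 folds had the higher score, 801.65 against 536.61. Trim37, a ligase of centriole assembly and peroxisomes, had 3 peaks, of which one stood apart at 11.81-fold (score 980.35) and the others were at 4.08 and 3.18. Trim41 reached 10.13-fold over 1518 bases.

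The other 12 listed Trim genes stayed below 8-fold. Trim2, Trim9 and Trim32 are named here after their values were seen. Trim2, a ligase that targets the light neurofilament chain in mice, had a wide peak of 724 bases with 5.73-fold and a score of 188.84. Trim9, which acts in netrin-dependent axon branching in mice, had a peak of 980 bases with 7.23-fold but a score of only 25. Trim32, a ligase of muscle and of neural progenitors, was at 2.95-fold with a score of 3.22. Antiviral family members were listed too, with Trim25 at 5.01, Trim5 at 7.56 and Trim34 at 5.08-fold. Trim5 and Trim34 are related neighbours, 13.4 kb apart in the table, and reads shared between such copies would leave their values uncertain.

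Rnf genes were the most numerous family, with 26 listed genes and 43 peaks, and the one with the largest number of weak peaks. Of the 43 peaks, 19 (44.2%) had a p above 0.05, against 28.2% of all peaks, and the median highest fold was 5.09 (interval 4.14 to 8.79). The exceptions were clear. Rnf20, a subunit of the ligase that attaches ubiquitin to histone H2B, had 3 peaks within 3.28 kb of chromosome 5, of which the highest, at bases 69405558 to 69405922, had 26.73-fold and a score of 1781.73. Its partner in that ligase, Rnf40, had 2 peaks with 9.12-fold and 5.52-fold, and scores of 97.56 and 71.18. Both partners carried more than 1 peak, as did 1892 of all 4212 listed genes, and the highest fold of Rnf40 was well under that of Rnf20. Rnf40 was named after its values were seen.

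Further nuclear ligases were listed. Rnf168, which extends the ubiquitin signal on histone H2A at DNA breaks, had a peak of 10.23-fold with a score of 295.02. Rnf8, which acts before it at the same breaks, was at 4.21-fold with a score of 16.09, and Rnf2, the catalytic subunit of Polycomb complex 1, at 5.06-fold with a score of 11.18. Rnf8 and Rnf2 were named after their values were seen.

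Rnf10, a ligase of stalled ribosomes in human cells that also travels from synapse to nucleus in rodent neurons, had 13.77-fold over 605 bases and the highest score of its family, 1943.9. Rnf5, a ligase anchored in the endoplasmic reticulum, had 1 peak of 11.95-fold at bases 6447809 to 6448046 of chromosome 20. Rnf157 and Rnf216 each had 3 peaks, but the highest folds were 5.97 and 4.81, and neither gene reached a score of 50. Many peaks therefore did not go with a strong one in these genes. Rnf216 belongs to the RING-between-RING ligases, which pass ubiquitin through a cysteine as HECT ligases do. Rnf144a, Rnf217 and Cul9 are of the same kind, chosen after their values were seen. Rnf144a and Rnf217 stood at 4.66 and 3.66-fold, and Cul9, counted with the cullins, at 12.05-fold with a score of 328.53.

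March proteins are RING ligases set in membranes, and 4 of 11 were listed (36.4%, interval 10.9 to 69.2%). That interval includes the 17.3% of all coding genes with a listed peak. March6 (now Marchf6), which works in the degradation of proteins of the endoplasmic reticulum, had 3 peaks spread over 34.9 kb of chromosome 2. Their folds were 8.14, 6.34 and 26.74 in order of position, and the last, at bases 104281660 to 104281884, had a score of 1937.69. March1, which removes antigen-presenting molecules from the surface of immune cells, had 1 peak of 99 bases with 14.46-fold and a score of 360.58. March5, a ligase of the mitochondrial outer membrane, was at 5.16-fold and March4 at 2.96-fold, with scores of only 7.98 and 4.74. The family was therefore split, with both strong members past a p of 1e-10 and both weak ones above a p of 0.05.

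Ubr proteins recognise the first residue of their targets, or relate to proteins that do. Ubr2 had 3 peaks, and 2 of them, 52.6 kb apart, were strong, with 12.43-fold (score 952.39) and 10.02-fold (score 150.49). Ubr4, a very large protein of the same pathway, had 4 peaks, the most of any member, and none above 7.27-fold. Ubr1 had a single peak of 49 bases with 5.36-fold and a score of 8.01. Ubr3 and Ubr7 had no listed peak.

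Of the HECT ligases, Huwe1 was the highest by fold. Huwe1, which marks regulators of cell death and of the cell cycle, had 2 peaks on chromosome X. The peak at bases 21877452 to 21877624 had 11.05-fold with a score of 407.53, and that at bases 21891434 to 21891610 had 5.53-fold with a higher score of 477.72. A peak number between these is absent from the table, the only such gap inside a member.

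Hectd4 had 2 peaks within 3.01 kb, at 10.07 and 4.31-fold. Nedd4l, which takes sodium channels off the membrane, had 9.5-fold with a score of 96.72, just short of 100. Herc genes were low: Herc3 was at 4.85, Herc2, which acts in DNA repair, at 4.77 and Herc4 at 3.4-fold, and none of them reached a score of 50. No peak was listed for Nedd4, Itch or Ube3a, the last known as the ligase of Angelman syndrome. Hectd2, Hectd3, Herc1 and Herc6 were also without one. The table does not tell an unmethylated RNA from one too low to be called.

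Fbxw proteins hold their target with repeats of the WD type, and 3 of the 4 listed Fbxw genes passed 10-fold. Fbxw11, which with its relative Btrc marks beta-catenin for removal, had a peak of only 63 bases at bases 17493159 to 17493221 of chromosome 10, with 22.66-fold and a score of 632.42. Fbxw7, which marks cyclin E, Myc and Notch, had 16.66-fold over 591 bases and a score of 1713.98, the highest of the F-box and cullin group, at bases 203707536 to 203708126 of chromosome 2. Fbxw4 had 16.59-fold with a score of 903.69. In Fbxw11 and Fbxw7 a second, weaker peak lay 62.8 and 63.5 kb away, at 7.33 and 5.44-fold. Fbxw8 stood at the other end with 2.6-fold and a score of 3.44, the lowest highest fold of any member.

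Fbxo genes, F-box proteins with other or no known target-binding domains, had 3 members above 10-fold and 7 below 6-fold, with none between. The 3 of 10 listed Fbxo genes (30%) are near the 24.2% of all listed genes that reached 10-fold. Fbxo41, an F-box protein made mainly in neurons, had 16.7-fold over 1039 bases with a score of 679.32. Fbxo44 had a similar fold of 14.59 with a much lower score, 104.43. Fbxo45, which works with Mycbp2 at synapses, had 10.16-fold. Fbxo25 had 3 peaks, none above 5.73-fold. The other low members were Fbxo30 at 5.77, Fbxo18 at 5.29, Fbxo9 at 5.17, Fbxo21 at 4.97, Fbxo16 at 3.31 and Fbxo33 at 3.02-fold.

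Of the 20 Fbxl genes, 3 had a peak (15%, exact 95% interval 3.21 to 37.9%), near the 17.3% of all coding genes. Fbxl17 had 6.43-fold with a score of 15.08, and Fbxl7 had 2.75-fold with a score of 3.35. No high-score peak lay in any of the 20 Fbxl genes (exact 95% interval up to 16.8%), and the 7.01% of all coding genes is within that interval.

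Among the cullins, the atypical ones were highest. Cul9, which holds p53 in the cytoplasm, had 12.05-fold and 6.45-fold peaks within 1.27 kb of chromosome 9, and Cul7, the scaffold that pairs with Fbxw8, had 10.1-fold over 322 bases. The classical scaffolds were lower and close together. Cul4a was at 6.4-fold, Cul3, the scaffold of Keap1, at 5.19, Cul2 at 5.04 and Cul1, the scaffold of the F-box proteins, at 4.71 with a score of only 5.03. Cul4b and Cul5 had no listed peak. The scaffold Cul1 was thus listed at a p above 0.05, whereas its adaptors Fbxw7 and Fbxw11, among the strongest F-box genes, scored 1713.98 and 632.42. Other F-box genes, namely Fbxo16, Fbxo21, Fbxo33 and Fbxl7, were at a p above 0.05 like Cul1. For Cul7 and its adaptor Fbxw8 the order was the reverse, with the scaffold above the adaptor.

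**Figure D3:**
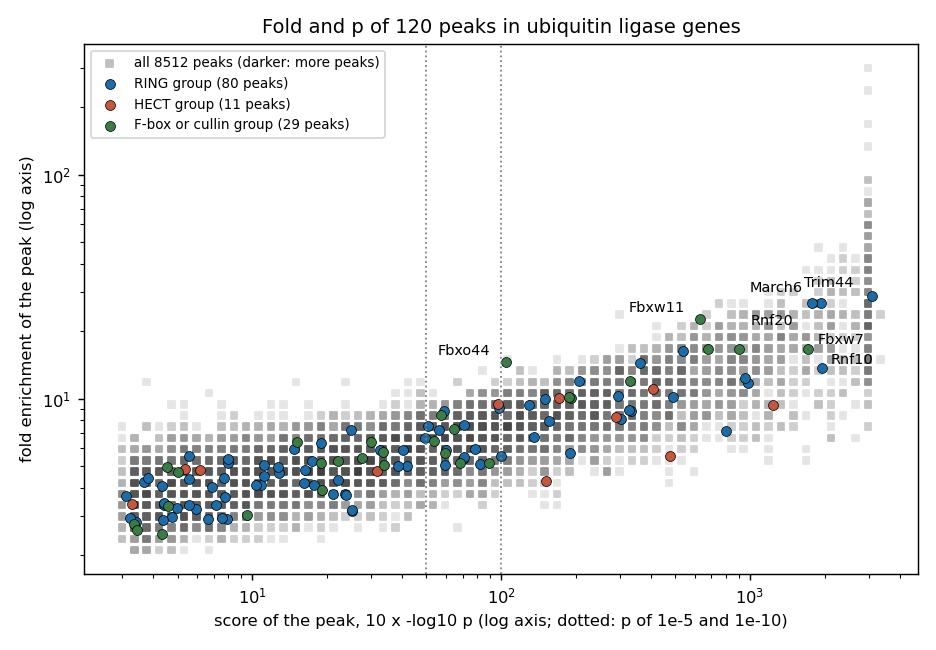
Fold enrichment (log axis) against score, 10 times −log10 of p (log axis), for the 120 peaks in ubiquitin ligase genes, coloured by group, over all 8512 peaks in grey. Fbxo44 and Fbxw11 lie on the upper edge of the grey cloud, with a high fold for their score.

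Most members had 1 peak. There were 50 with 1, 21 with 2 and 9 with 3 or more (11.2%), against 23.6% of all listed genes with 3 or more. Ubr4 had 4 peaks, and March6, Rnf20, Rnf157, Rnf216, Trim37, Ubr2 and Fbxo25 were among those with 3. Of the 9, 8 were in the RING group. The number of peaks per gene was 1.63 in the RING group, 1.38 in the HECT group, 1.26 among F-box and cullin genes and 2.02 over all listed genes. Across the 80 members the number of peaks followed the span of the gene weakly (Spearman's rho 0.153 across genes, which share both libraries and are not replicates), and over 4028 listed genes rho was 0.253.

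Among the 30 members with more than 1 peak, a minority had one that stood well above the rest. In 11 of the 30 (36.7%) the highest fold was at least 2 times the next, against 16.5% of 1892 genes in the whole table. Members had fewer peaks than other genes, so the same was counted in genes with exactly 2 peaks. There it was 8 of 21 members (38.1%) and 22.3% of 898 genes. Counts this small leave both member shares uncertain, and whether they differ from the whole table was not tested. March6, with 26.74 against 8.14, Fbxw11, Fbxw7, Rnf168 and Rnf20 had ratios above 3. In 14 of the 30 genes the peaks lay within 10 kb, and in others, such as Rnf111, Rnf157, Fbxw7 and Fbxw11, they were spread over 63 to 64.2 kb. This spacing was not counted for other listed genes, so the 14 cannot be set against the whole table. Whether neighbouring peaks in different exons are pieces of one enriched stretch was not analysed here.

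**Figure D4:**
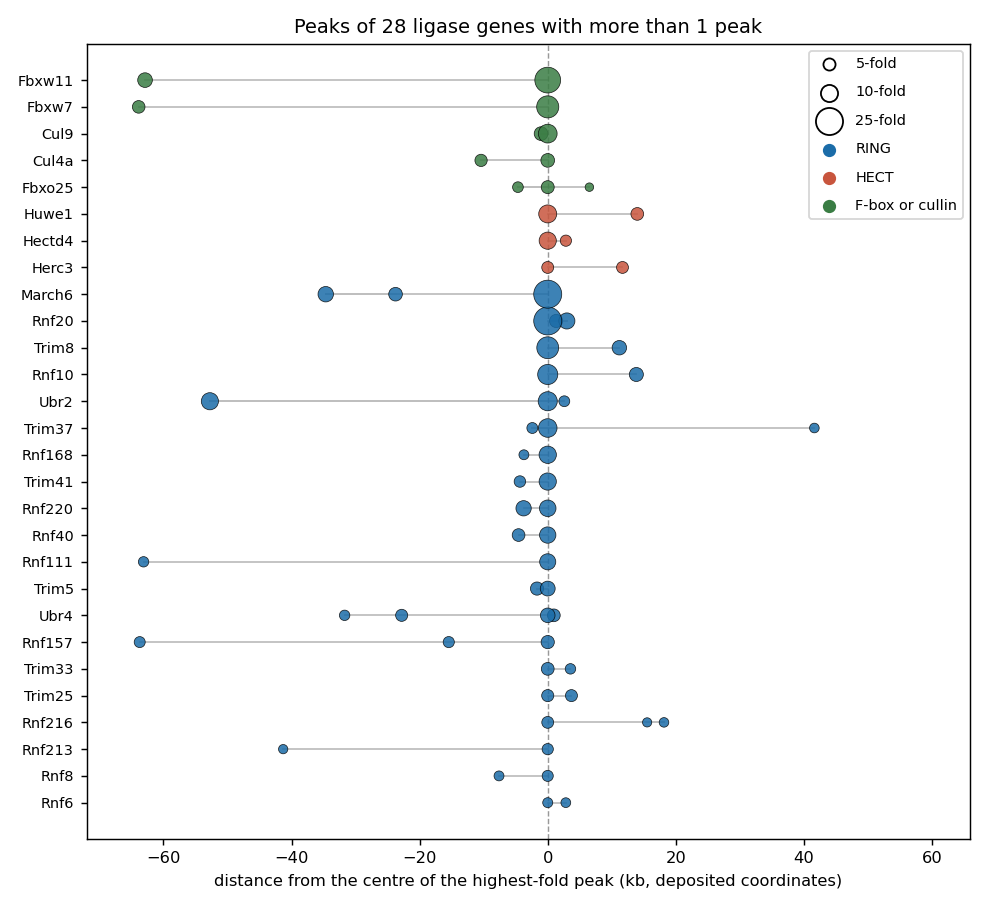
Positions of the peaks of 28 of the 30 ubiquitin ligase genes with more than 1 peak, as the distance in kb from the highest-fold peak of the gene, without regard to strand. Circle area is proportional to fold enrichment and colour gives the group; the 3 peaks of Rnf20 lie within 3.28 kb, those of March6 over 34.9 kb.

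Member peaks were of ordinary length, with a median of 180 bases against 161 over all peaks. Peaks shorter than 100 bases made up 16 of 120 (13.3%), against 18.5% of all peaks, and those of 400 bases or more 20 (16.7%), against 14.4%. High folds occurred at both ends, with 22.66 over 63 bases in Fbxw11 and 16.28 over 1585 bases in Trim8. Rnf113a2, a close relative of Rnf113a1 and only 1.28 kb long in the gene table, had a peak of 1184 bases at 5.13-fold. Reads shared between these 2 genes would leave that value uncertain.

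The members lay on 20 of the 21 chromosomes in the table, and 4 pairs were neighbours within 250 kb. Besides Trim34 and Trim5, these were Rnf168 and Fbxo45, 68.3 kb apart on chromosome 11 with 10.23 and 10.16-fold, Cul7 and Cul9, 206 kb apart on chromosome 9 with 10.1 and 12.05-fold, and Fbxw8 and Fbxo21, 131 kb apart on chromosome 12 with 2.6 and 4.97-fold. The pairs were picked by distance alone. Rnf168, Fbxo45 and Cul7 lay just above 10-fold, which 24.2% of all listed genes reached. Whether neighbours resemble each other in fold was not tested.

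The deposited annotation bears on whether the names fit. A ubiquitin transferase or ligase activity was annotated to 55 of the 80 members (68.8%), against 2.66% of all listed genes, and it was present in 37 of 49 RING genes, all 8 HECT genes and 10 of 23 F-box or cullin genes, whose proteins mostly bind targets for a complex. Binding of zinc was annotated to 45 of the 49 RING genes. No annotation of function, process or place was given for 5 members. A nuclear place was annotated to 41 members (51.2%), against 40.2% of all listed genes, and a place in synapses, axons, dendrites, neuron projections or the neuronal cell body to 4, Fbxo45, Rnf40, Rnf6 and Trim9 (5%), against 12.8%.

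Other genes of the ubiquitin ligase system were taken from 4 lists of ligases and subunits with other names. Of 130 such genes, 44 had a peak (33.8%, exact 95% interval 25.8 to 42.7%), against 17.3% of coding genes, and 12 held a high-score peak (9.23%), against 7.01%. Of the 130, 5 reached 10-fold (3.85%), against 8.4% of the 250 family genes and 4.17% of coding genes. The highest of them was Nedd8, the ubiquitin-like protein that switches cullins on, at 41.21-fold with a score of 3100 on bases 38242374 to 38242650 of chromosome 15, above every member of the families.

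Among 50 other genes of cullin complexes, 19 had a peak (38%, exact 95% interval 24.7 to 52.8%), against 17.3% of coding genes. Besides Nedd8, Cand2, an exchange factor of cullin complexes, had 13.31-fold, the adaptor gene Dcaf6 12.74-fold with 4 peaks and Kctd1 11.31-fold. Of 11 other HECT genes, 4 had a peak (36.4%, interval 10.9 to 69.2%). Ube3c, a ligase attached to the proteasome, had 19.18-fold and 14.62-fold peaks and so stood above each HECT member, while Trip12 was at 6.16, Smurf2 at 3.5 and Hace1 at 2.81-fold. Of 53 other RING and U-box genes, 15 had a peak (28.3%, interval 16.8 to 42.3%). None of the 53 reached 10-fold (interval up to 6.72%), against 4.17% of coding genes. Arih1, a RING-between-RING ligase that works with cullins, was highest at 9.18, followed by the apoptosis inhibitor Birc2 at 8.04, Arih2 at 8.03 and Neurl1 at 7.96-fold. The anaphase-promoting complex, a large relative of the cullin ligases that drives the cell cycle, had peaks in 6 of 16 genes (37.5%, interval 15.2 to 64.6%). Anapc13 led at 7.22, followed by Anapc7 at 6.36, Anapc5 at 5.8 and Cdc27 at 5.5-fold. None of the 16 had a high-score peak (exact 95% interval up to 20.6%), against 7.01% of coding genes. The intervals for a listed peak in the other HECT, other RING and U-box and anaphase-promoting complex lists include the 17.3% of coding genes.

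The culture was checked against cell type markers as far as peaks allow. Of 13 neuron markers 9 had a peak, each with a high-score peak, and Tubb3, Nefl, Dcx and Stmn2 had none. Peaks were listed for 1 of 8 astrocyte markers (Sox9), 0 of 8 of the oligodendrocyte lineage (exact 95% interval up to 36.9%), 2 of 7 of microglia (Aif1 and C1qa) and 1 of 6 of vessels and fibroblasts (Col3a1), and the defining astrocyte genes Gfap and Aqp4 had none. Over all coding genes the share with a peak was 17.3%, against 69.2% of the neuron markers. It was 12.5% for astrocyte, 0% for oligodendrocyte, 28.6% for microglia and 16.7% for vessel and fibroblast markers. Counts this small do not set those 4 lists apart from genes at large. A missing peak does not show that an RNA is absent, and in bulk RNA fewer cells of a type and less RNA per cell cannot be told apart. The part of other cell types in the values of ligase genes was not tested.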

How the data were processed

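The data were 1 table of peaks from 1 IP and 1 input library, told apart by title. Per the labels' protocols, RNA with m6A was pulled down with a commercial kit and sequenced from directional libraries. Tools listed in the submitters' processing notes, with no role, are HISAT2 2.0.4, STAR and cutadapt 1.9.3. Per the file headers and peak names, peaks came from MACS; the sources used here give neither its version and limits nor the build. Fold enrichment was deposited as a linear ratio. Each p-value is held as a deposited score, 10 times −log10 of p. The deposited percent of false discoveries is 100 in each row and was not used. The highest peak number, 14090, exceeds the number of rows, so other called peaks are not in view.

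Members were found by deposited name. Current symbols came from a RefSeq table of GRCr8, by symbol for 73 members and gene ID for 7. No member peak lay on another chromosome than its gene there. Each gene was given its highest fold; shares have exact (Clopper-Pearson) 95% intervals and medians order-statistic intervals, both covering counting error only. No test between groups was possible. The members, lists and limits were chosen with earlier results of these data known. The rule for named genes took up to 4 genes with the highest fold in each family and in each of the 4 lists of other ligase genes, all members with 3 or more peaks or 10-fold, the 5 genes named singly and cullins without a peak. Others are said to be named later or are given in full lists. Rnf111, Rnf113a2 and Trim25 were also named outside that rule, with their values known. Some members are counted but not reported by name here. Alternatives were stricter p limits, a fold or length minimum, updated names, the mean fold and other groupings. Sequences under peaks are not shown, since a genome of that build was not used. Software was matplotlib 3.10.9, SciPy 1.17.1, numpy 2.4.6, pandas 2.3.3 and Python 3.11.15.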

Additional observations from a re-analysis of the deposited data

How the results depend on the processing

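For 12 results, 85 alternative values were computed, of which 58 stayed within the interval of the reported value or within 1.5 times of a count. All others came from the choice of peaks admitted. The interval of the HECT median is the full range of its 8 genes, so the HECT median staying inside it says little. At a p of at most 1e-5 there were 39 members with 53 peaks (22 RING, 5 HECT and 12 F-box or cullin genes), a share of 15.2% and medians of 10.1 for all members, 9.75 for RING and 11.1 for F-box or cullin genes. At 1e-10 there were 26 members with 34 peaks (14, 4 and 8 genes), a share of 10.4% and medians of 12, 12.2 and 15.6. With peaks of at least 5-fold there were 71 peaks, 5 HECT genes, a share of 20.8% and medians of 8.43 for all members and 7.56 for RING genes. The 9 members with 3 or more peaks became 1 at 1e-5, 0 at 1e-10, 2 with at least 5-fold and 3 with at least 100 bases. The rise of medians follows from leaving out weak peaks. The 21 members above 10-fold became 19 with peaks of at least 100 bases, and 20 without Trim44, a setting added after the data were seen. Under the p limits and the 5-fold minimum they stayed 21. That was fixed beforehand, since all 21 had a peak past both 10-fold and 1e-10. The mean fold was not applied to this count. No paired analysis was possible because each group has 1 library, and no depth is known.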
